A study of Arabidopsis thaliana with 6 samples.

Results

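The carotenoid cleavage dioxygenases of Arabidopsis thaliana form a family of 9 genes, which were taken by name from the gene table out of 27444 nuclear protein-coding genes. They are NCED2, NCED3, NCED5, NCED6 and NCED9, whose products make the precursor of the hormone abscisic acid (ABA), and CCD1, CCD4, CCD7 and CCD8, whose products cleave carotenoids for other ends. All 9 were found by locus and listed as protein-coding. CCD4 stands in the table under the symbol NCED4, with CCD4 as a synonym. The genes lie on chromosomes 1, 2, 3 and 4 and are between 1885 and 3271 bp long.

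The series asks how the noncoding RNA HID1 acts in seed germination through phytochrome B, the red light receptor that promotes germination, and through ABA synthesis. Chromatin isolation by RNA purification (ChIRP) was used, in which DNA that is cross-linked to an RNA is pulled down with biotinylated probes antisense to that RNA. All 6 samples were seeds of the wild-type Col-0 ecotype that had received 5 min of red light, which activates phytochrome B, and 48 h of darkness. They comprised 2 probe samples, 2 mock samples made with unlabelled probes and 2 input samples. A peak list of each probe sample was analysed, 1 from seeds fixed with formaldehyde, a reversible cross-linker, and 1 from seeds fixed with glutaraldehyde, a non-reversible one. The mock and input samples were not analysed here.

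Carotenoid cleavage dioxygenases are iron enzymes that cut the coloured, long-chain carotenoids at a double bond. The 9-cis-epoxycarotenoid dioxygenases (NCEDs) cut epoxycarotenoids in plastids and so release xanthoxin, in the step that commits carbon to ABA, the hormone that holds seeds dormant. In Arabidopsis NCED6 and NCED9 are known for ABA made during seed development, NCED3 for ABA made under drought, and NCED5 for a further contribution to both. The other branch of the family makes volatile and colour-related cleavage products (CCD1 and CCD4) or strigolactones, the hormones that restrain shoot branching (CCD7 and CCD8).

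The formaldehyde list held 4557 peaks and the glutaraldehyde list 6306. Each cross-linker has 1 library, so no test over samples was possible and every value below is a description. Read depth is unknown from the lists. The score of a peak is the authors' value from the peak caller, and ranks were taken within a list, with rank 1 as the highest score. A peak counted for a gene if it overlapped the gene body or the 1 kb on either side. Printed coordinates follow the peak lists (TAIR10) and count from 1. The gene table gives no strand or exons, so edges of a gene are called lower or higher by coordinate, and promoter, exon, intron and untranslated region could not be assigned. Whether the tissue was seed cannot be checked from lists of DNA peaks.

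NCED9 held a peak in its body in both libraries, CCD7 held one in its body with formaldehyde, and CCD8 had one next to its body with glutaraldehyde. The other 6 genes, NCED2, NCED3, NCED5, NCED6, CCD1 and CCD4, had no peak closer than 4311 bp with either cross-linker. Thus 2 of 9 genes (22.2%) had a formaldehyde peak, where 16.9% of all protein-coding genes had one. Likewise 2 of 9 (22.2%) had a glutaraldehyde peak, where 25.9% of all protein-coding genes had one. Both counts lie near the background. A peak of either library was found for 3 of 9 genes (33.3%), against 38% of all protein-coding genes. An interval shared by overlapping peaks of both libraries was found at NCED9, 1 of 9 genes, and at 485 protein-coding genes in all (1.77%). Among the 9864 protein-coding genes whose length lies in the range of the family, the shares were 16.7% with formaldehyde, 27.4% with glutaraldehyde and 1.63% for shared intervals, and 39.5% had a peak of either library, so length hardly moved the background. In the gene body itself, 2 of 9 genes had a formaldehyde peak against 11.4% of all protein-coding genes, 1 of 9 a glutaraldehyde peak against 16.7%, and 1 of 9 a shared interval against 1.1%.

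**Figure D1:**
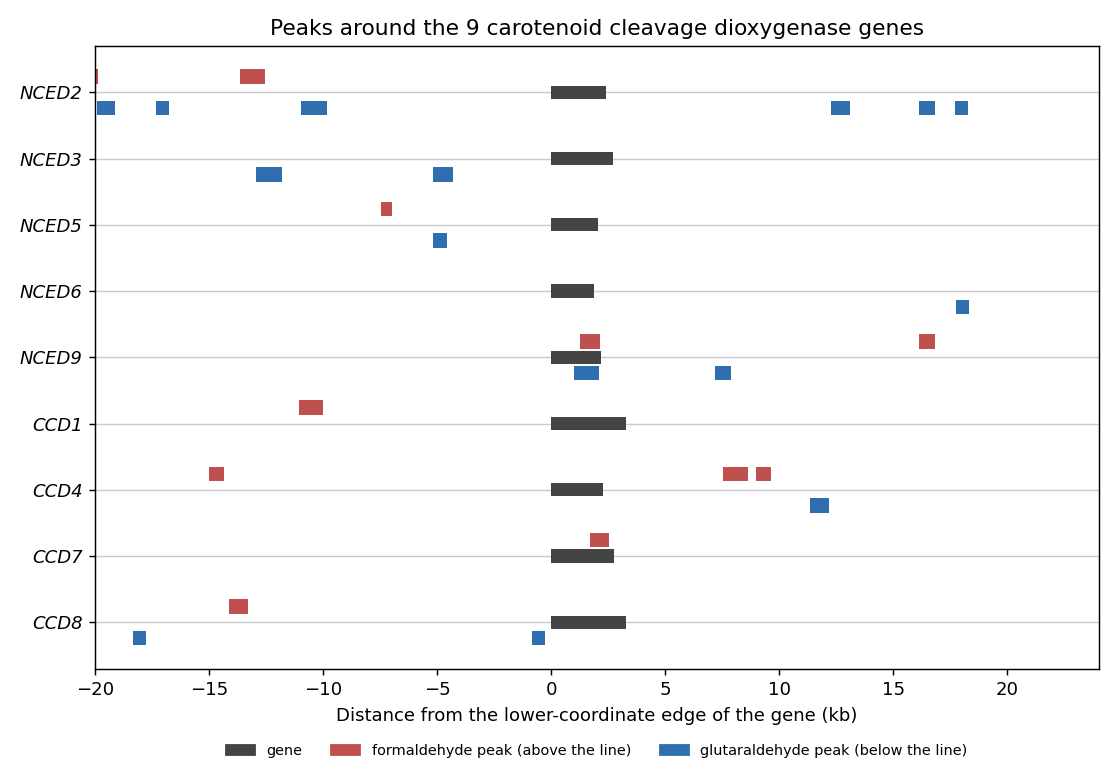
Peaks around each of the 9 genes, with the distance from the lower-coordinate edge of the gene in kb on the horizontal axis and 1 gene a line. Grey bars are the genes, red bars above the line formaldehyde peaks and blue bars below it glutaraldehyde peaks, all to scale. Peaks of both libraries lie over NCED9, a formaldehyde peak lies over CCD7 and a glutaraldehyde peak ends 287 bp before CCD8.

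NCED9 (AT1G78390) encodes the NCED known for ABA synthesis in the endosperm and embryo of developing seeds. Its formaldehyde peak ran on chromosome 1 from 29491952 to 29492865, 914 bp, and covered 42.1% of the gene body. Its glutaraldehyde peak ran from 29491687 to 29492779, 1093 bp, and covered 50.3% of the body. Both peaks lay wholly inside the gene, in its higher-coordinate part, and neither reached another gene. The formaldehyde peak began 1247 bp from the lower edge and ended 10 bp before the higher edge, and the glutaraldehyde peak began 982 bp from the lower edge and ended 96 bp before the higher one. The shared interval of 828 bp thus ran from 57.4% to 95.6% of the gene's length, counted from the lower edge. The next protein-coding genes, GSTU19 (a glutathione transferase gene) and AT1G78400, lay 2698 bp below and 5319 bp above NCED9.

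The peaks at NCED9 shared more bases than most other shared pairs did. The shared interval made up 90.6% of the formaldehyde peak and 75.8% of the glutaraldehyde peak, and the midpoints of the peaks were 175.5 bp apart. Over all 488 pairs of overlapping peaks the median shared length was 472.5 bp, and 35 pairs (7.17%) shared at least as many bases as the pair at NCED9. A wide peak leaves room for a long overlap, and the glutaraldehyde peak at NCED9 was wide for its list, since 6.55% of glutaraldehyde peaks were as wide or wider. For the formaldehyde peak that share was 43.4%. In 186 of the 488 pairs (38.1%) each peak was covered over at least 50% of its length, and in 135 (27.7%) the midpoints lay within 200 bp. The NCED9 pair met both conditions. With peaks of a score of 100 or more, 0 of the 9 genes had a shared interval, since the formaldehyde peak at NCED9 falls below that value. The share of all protein-coding genes at that score was not taken.

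The libraries ranked the NCED9 site differently. With formaldehyde the score was 62.8, rank 3097 of 4557, below the list median of 74.3 and in the lower part of the list (68% from the top). With glutaraldehyde the score was 138, rank 586 of 6306, well above the list median of 72.3 (9.29% from the top). Of the 488 pairs, 367 (75.2%) had a formaldehyde score at least as high as NCED9's, 56 (11.5%) a glutaraldehyde score at least as high, and 46 both. The HID1 locus, AT2G35747, is the reference point of each list, since the probes match it. It had a formaldehyde score of 348 (rank 23) and a glutaraldehyde score of 2149.6 (rank 1), above NCED9 in both lists. Among the 485 genes with a shared interval, ordered by the poorer of the ranks as a percentage of its list, NCED9 stood at place 284. Each gene was placed by its highest scoring peak of each list in the body or within 1 kb, which need not be the shared one.

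**Figure D2:**
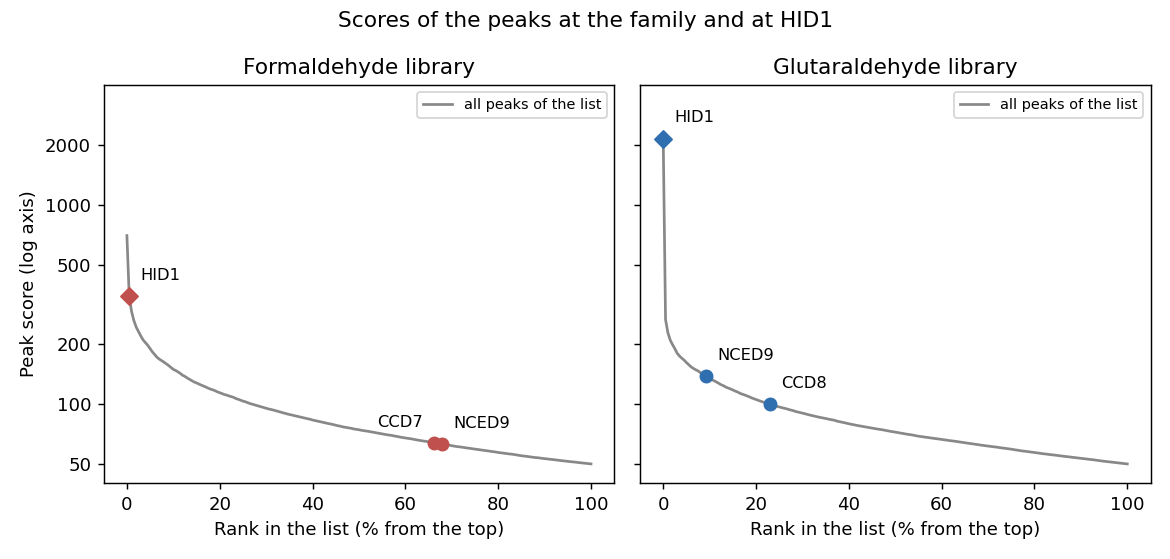
Peak score (log axis) against rank in the list as a percentage from the top, for formaldehyde on the left and glutaraldehyde on the right. The grey line is the whole list, circles are the peaks at NCED9, CCD7 and CCD8 and the diamond is the peak at the HID1 locus. NCED9 and CCD7 lie beside each other in the lower part of the formaldehyde list (68% and 66.2% from the top), and NCED9 lies above CCD8 in the glutaraldehyde list (9.29% and 23.1%).

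The relatives of NCED9 in ABA synthesis had no peak within 1 kb, but not all of them lay far from peaks by the measure of all protein-coding genes. NCED6, which is known for ABA synthesis in the endosperm, was the farthest of the family from a formaldehyde peak, with 36716 bp to a peak near the ammonium transporter gene AMT1;5. Its nearest glutaraldehyde peak lay 15871 bp away, near AT3G24240. With formaldehyde 92.4% of protein-coding genes lay as near to a peak or nearer than NCED6, and with glutaraldehyde 85.7% did, so NCED6 was among the genes far from peaks in both lists. It also had 1 formaldehyde peak and 2 glutaraldehyde peaks within 50 kb of its midpoint, where the median protein-coding gene had 3 and 6.

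NCED3, the drought-induced gene of the family, lay 31746 bp from the nearest formaldehyde peak, which overlapped the kinase gene WAG2 and had a score of 56.0 (rank 3771). With glutaraldehyde the nearest peak was 4311 bp away on the lower-coordinate side, with a score of 124 (rank 804), in the 6373 bp stretch between NCED3 and AT3G14430. That distance is near the median of 4362 bp over all protein-coding genes, and 49.8% of them lay as near to a glutaraldehyde peak or nearer. For the formaldehyde distance of NCED3 that share was 89.5%. A further glutaraldehyde peak, with a score of 88.1 (rank 1986), lay farther out on the same side.

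NCED5 had peaks of both libraries on the same side and apart from each other. The glutaraldehyde peak was 4583 bp away and scored 83.0 (rank 2314), on chromosome 1 from 10566144 to 10566727. The formaldehyde peak was 6991 bp away and scored 60.0 (rank 3354), from 10563850 to 10564319. The peaks did not overlap, and both lay in the 9765 bp between NCED5 and AT1G30090. They were the only peaks within 20 kb of the edges of NCED5. Both distances were ordinary, as 45.3% of protein-coding genes lay as near to a formaldehyde peak or nearer, and 51.3% to a glutaraldehyde peak.

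NCED2 stood in the stretch richest in glutaraldehyde peaks among the 9 genes, with 8 within 50 kb of its midpoint, and 23.6% of protein-coding genes had as many or more. None was near the gene. The closest, 9846 bp away over AT4G18340, had a score of 152 (rank 395), and the nearest formaldehyde peak, 12559 bp away over AT4G18330 and AT4G18335, had a score of 166 (rank 335). Both ranked higher in their lists than the peaks at NCED9, on chromosome 4 from 10131290 to 10132409 and from 10128623 to 10129696. Around NCED2, then, strong peaks lay over neighbouring genes. Of all protein-coding genes, 62.3% lay as near to a formaldehyde peak or nearer than NCED2, and 72.7% to a glutaraldehyde peak.

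**Figure D3:**
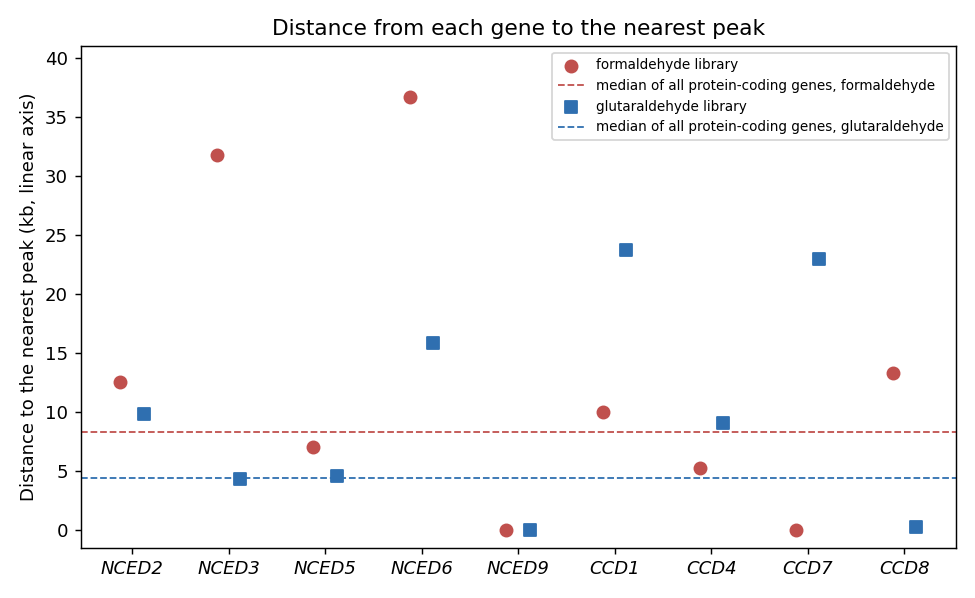
Distance in kb (linear axis) from the edge of each of the 9 genes to the nearest peak, with red circles for formaldehyde, blue squares for glutaraldehyde and dashed lines at the median of all protein-coding genes (8.3 and 4.4 kb). NCED9 is at 0 in both libraries, CCD7 at 0 with formaldehyde alone, and NCED3 and NCED6 lie 31.7 and 36.7 kb from a formaldehyde peak.

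Among the CCD genes, CCD7 and CCD8 act one after the other in strigolactone synthesis, and each had a peak in a different library. CCD7 (AT2G44990, also MAX3) encodes the enzyme that cleaves 9-cis-beta-carotene. Its formaldehyde peak lay wholly in the body on chromosome 2 from 18560589 to 18561439, 851 bp, and covered 31.1% of the gene. The score of 63.7 (rank 3018) was close to that of the NCED9 peak in the same list, and the peak likewise lay towards the higher edge, ending 182 bp before it. No glutaraldehyde peak was nearer than 22948 bp, a distance within which 93.1% of protein-coding genes had one. The formaldehyde peak at CCD7 was the only formaldehyde peak within 50 kb of the midpoint of the gene.

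CCD8 (AT4G32810, also MAX4) encodes the enzyme that turns the product of CCD7 into carlactone, the strigolactone precursor. Its glutaraldehyde peak, on chromosome 4 from 15827406 to 15827941, 536 bp, ended 287 bp from the lower edge of the gene and did not reach the body. The next protein-coding gene on that side, AT4G32800, lay 7349 bp from CCD8, so CCD8 was the nearest gene to this peak. The score was 99.5 (rank 1458, 23.1% from the top), just under the value of 100 used as a stricter threshold. The nearest formaldehyde peak was 13296 bp away, over AT4G32790, with a score of 50.9 (rank 4427 of 4557), close to the lowest in the list. The gene table lists AT4G32820 as overlapping CCD8, and the peak lay outside that overlap.

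CCD1 and CCD4 had no peak within 1 kb. CCD1 lay 10011 bp from a formaldehyde peak over AT3G63480 with a score of 138 (rank 557), and 23754 bp from a glutaraldehyde peak over AT3G63450 with a score of 85.5 (rank 2144). CCD4 lay 5263 bp from a formaldehyde peak over UMAMIT2, with a score of 96.0 (rank 1344), and 9072 bp from a glutaraldehyde peak over AT4G19190, with a score of 122 (rank 845). Of all protein-coding genes, 55.3% lay as near to a formaldehyde peak or nearer than CCD1, and 38.5% than CCD4. For glutaraldehyde peaks these shares were 93.7% and 70.1%. CCD4 had the most formaldehyde peaks of the family within 50 kb, with 6 against a median of 3 over all protein-coding genes, and 3 glutaraldehyde peaks against a median of 6.

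Ordered by distance to a formaldehyde peak, NCED9 and CCD7 (both 0) came first, followed by CCD4, NCED5, CCD1, NCED2, CCD8, NCED3 and NCED6. By distance to a glutaraldehyde peak the order was NCED9, CCD8, NCED3, NCED5, CCD4, NCED2, NCED6, CCD7 and CCD1. NCED9 was thus first in both, and CCD7 went from first to the last place but 1. With 1 library a cross-linker there is no spread by which to tell neighbours in these orders apart. The threshold of 1 kb fell in a gap, as CCD8 at 287 bp was the last gene inside it and NCED3 at 4311 bp from a glutaraldehyde peak the first outside. The median distance over the 9 genes was 10011 bp with formaldehyde, against 8304.5 bp over all protein-coding genes, and 9072 bp with glutaraldehyde, against 4362 bp. As a group the 9 genes were therefore no nearer to peaks than protein-coding genes at large, except to glutaraldehyde peaks with a score of 100 or more, where the medians were 20.2 kb for the family and 26.1 kb for all. Without NCED9 the medians were 11.3 and 9.5 kb.

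Genes of the pathways around the cleavage step were set beside the family. Carotenoid synthesis, which supplies the substrates, had 3 of 11 genes with a formaldehyde peak and 3 of 11 with a glutaraldehyde peak (27.3% each), against 16.9% and 25.9% of all protein-coding genes. PSY, which encodes phytoene synthase at the entry of the pathway, had a peak in each library, but the peaks did not overlap. The formaldehyde peak lay 172 bp outside the gene (score 75.2, rank 2217) and the glutaraldehyde peak in its body (score 81.5, rank 2400). Formaldehyde peaks overlapped BETA-OHASE 2, a beta-carotene hydroxylase gene (score 60.5), and lay 61 bp from LUT2, the lycopene epsilon-cyclase gene (score 73.1). Glutaraldehyde peaks lay 510 bp from the phytoene desaturase gene PDS3 (score 111) and 90 bp from LUT1, a carotenoid hydroxylase gene of lutein synthesis (score 64.0). No gene of the 11 had a shared interval, against 1.77% of all protein-coding genes. A peak of either library was found for 5 of the 11 (45.5%), against 38% of all, and the other 6 had none within 1 kb. Counts over 11 genes are too few to be read against such shares.

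Of 6 further genes grouped here under ABA synthesis, ABA3 had a formaldehyde peak (score 61.4, rank 3218) and none had a glutaraldehyde peak. Not every gene of this group encodes an enzyme of a step towards ABA. These counts, 1 and 0 of 6, stand beside 16.9% and 25.9% of all protein-coding genes, and so few genes cannot be read against such shares. ABA3 encodes the sulfurase of the molybdenum cofactor that the last enzyme of the pathway needs. ABA1, VDE1, ABA4, ABA2 and AAO3 had no peak within 1 kb.

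Strigolactone synthesis and signalling, the route that CCD7 and CCD8 serve, had 2 of 8 further genes with a formaldehyde peak (25%) and 3 of 8 with a glutaraldehyde peak (37.5%), against 16.9% and 25.9% of all protein-coding genes. None had a shared interval, against 1.77% of all. Counts over 8 genes are likewise too few to be read against such shares. MAX1, the cytochrome P450 gene that acts after CCD8, had a formaldehyde peak of 1644 bp with a score of 241 (chromosome 2, 11142471 to 11144114), which overlapped the gene body and ran past its higher edge. Its rank of 99 among 4557 was the best of any formaldehyde peak at the family or the listed pathway genes, the next being 2217 at PSY. SMXL8, which encodes a repressor of strigolactone signalling, was overlapped by the other formaldehyde peak (score 60.1). Glutaraldehyde peaks lay in D27, the isomerase gene that precedes CCD7 (score 65.3), in SMXL7, a repressor gene like SMXL8 (score 96.6), and 190 bp from LBO, an oxidoreductase gene late in the route (score 78.1). In this list each gene with a peak had it in a single library. D14, MAX2 and SMXL6 had none.

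**Figure D4:**
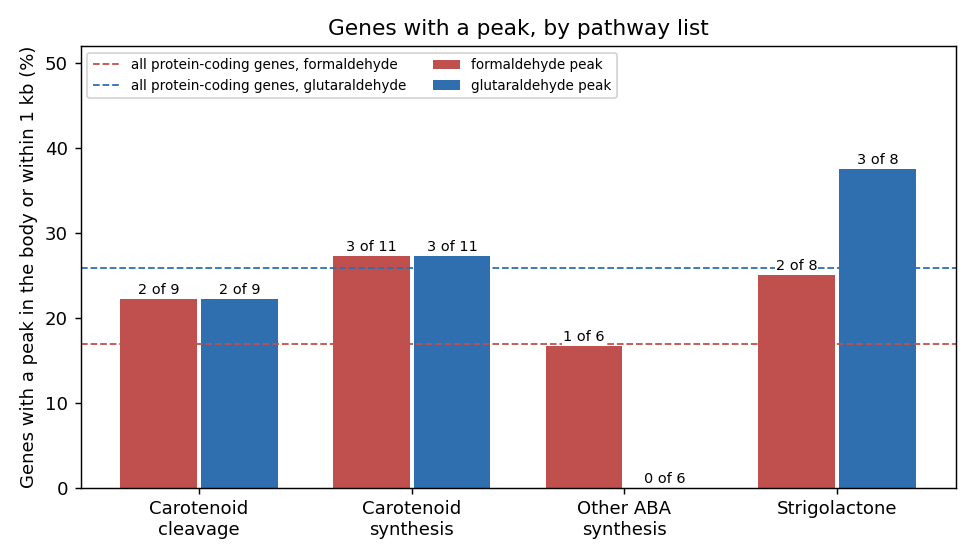
Percentage of genes with a peak in the body or within 1 kb, for the 9 carotenoid cleavage genes and 3 pathway lists, with red bars for formaldehyde, blue bars for glutaraldehyde and the counts above the bars. Dashed lines mark the share of all protein-coding genes (16.9% and 25.9%). Each bar rests on 0 to 3 genes.

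To show which genes resemble NCED9 over the 2 libraries, the 485 genes with a shared interval were ordered by the sum of the differences of both rank percentages to those of NCED9. The highest scoring peak of each gene in each list was again used. A shared peak on chromosome 5, formaldehyde 5795892 to 5796725 and glutaraldehyde 5795873 to 5796815, came first with a sum of 3.24 percentage points. It overlapped AT5G17580 and lay within 1 kb of AT5G17570 and AT5G17590, so that these genes share 1 site. Its scores were 61.8 and 132. AT3G47140 followed with a sum of 4.01 (scores of 61.4 and 132) and AT4G17020 with 5.51 (scores of 64.1 and 153). These genes were picked for their likeness, which is a description of the lists.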

How the data were processed

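The data are ChIRP-seq peak lists of 2 probe samples, each from 0.3 g of seeds. Per the labels, fixation took 20 min in 1% of either aldehyde, and both ends of fragments were read over 150 bp. The score of each peak was used as the authors deposited it. Per the submitters' processing notes, the tools were Bowtie2 2.1.0 and MACS 1.4.2 and the build TAIR10. The control used in peak calling, duplicate handling, multiply mapped reads and depth were not given in the sources used here, and each can change which weak peaks are listed. No source used here says whether separate batches of seed were sampled. Replicate number and cross-linker are the same contrast.

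Gene positions came from the RefSeq table of TAIR10.1, whose nuclear coordinates are those of TAIR10 from background knowledge. On each of 5 chromosomes formaldehyde midpoints were fewest between 100 and 400 bp outside gene edges, which a shift between assemblies would blur. Prior knowledge, not the table, identifies AT2G35747 as HID1, and the table lists it as a small nucleolar RNA. Distances run from edge to edge. An overlap of 1 bp or more made peaks shared. Distances and overlaps were tested on simulated peaks (Python 3.11.15, pandas 2.3.3). No sequence was printed because neither the lists nor the gene table holds any.

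The members, gene lists and alternatives were chosen with earlier results of these data known. Named genes are the 9 members, every pathway gene with a peak, the genes at or next to the nearest peaks, HID1 and the 5 genes most like NCED9. Pathway genes without a peak and the next protein-coding genes beside a member were added to give context.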

Additional observations from a re-analysis of the deposited data

How the results depend on the processing

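Windows of 500 bp or 2 kb and the use of peak midpoints left the counts of genes with a peak as they were, namely 2 with formaldehyde, 2 with glutaraldehyde and 1 with a shared interval. For the shared interval so did gene bodies alone, overlap over 50% of each peak and midpoints within 200 bp. The background did move with the window. Of all protein-coding genes, 14.17% had a formaldehyde peak within 501 bp and 22.45% within 1995 bp. For glutaraldehyde these shares were 21.39% and 34.33%. The glutaraldehyde count was 1 in gene bodies alone, since the CCD8 peak lies outside the gene. With scores of 100 or more, and with the 1000 highest scoring peaks of each list, the counts were 0 with formaldehyde, 1 with glutaraldehyde (NCED9) and 0 shared. The shares of all protein-coding genes under these 2 settings were not taken, so these counts cannot be read against a background. Without either library, the genes with a peak in the other were 2, with CCD8 beside NCED9 in glutaraldehyde and CCD7 beside NCED9 in formaldehyde. Between midpoints the median distances over the 9 genes were 12.2 kb with formaldehyde and 10.6 kb with glutaraldehyde (5.9 kb with glutaraldehyde over all protein-coding genes). To peaks with a score of 100 or more they were 85.2 and 20.2 kb (45.2 and 26.1 kb), so the glutaraldehyde distance of the family then fell below that of all genes. Within 50 kb of the gene midpoint the median peak numbers of the family were 3 with formaldehyde and 6 with glutaraldehyde, the same as over all protein-coding genes. They were 1 and 1 within 25 kb, where all genes had 2 and 3, and 6 and 10 within 100 kb, where all genes had 7 and 11. No paired analysis was possible because no result comes from a test and 1 group has peak lists. Unknown depth limits how weak peaks and missing peaks can be read.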
